A study of Mus musculus with 72 samples.

Results

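The mitochondrial genome of the mouse encodes 13 proteins, and transcripts of 9 of these genes, mt-Nd1, mt-Nd2, mt-Nd4, mt-Nd5, mt-Co1, mt-Co2, mt-Co3, mt-Atp6 and mt-Cytb, were examined across 5 tissues of mice with and without Gnb5. The genes were taken by name, 9 of the 53715 gene identifiers with read counts, and each was described by its share of all reads counted on genes in a library. Gnb5 encodes the β5 subunit of heterotrimeric G-proteins. The series comprised 72 RNA-seq libraries in 12 groups of 6, from 18 male mice aged 18 weeks on a C57BL/6J background. Atria and ventricles came from 6 Gnb5−/−, 6 Gnb5+/− and 6 Gnb5+/+ mice, whereas cerebellum, hippocampus and cerebral cortex came from the Gnb5−/− and Gnb5+/+ animals only. Gnb5−/− mice lack exon 3 of Gnb5 on both alleles in every cell, Gnb5+/− mice lack it on a single allele, and Gnb5+/+ mice are their wild-type controls. Whole organs or regions were used, so each library mixed all of their cell types, and the atria included the conduction tissue.

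Respiratory complexes of the inner mitochondrial membrane pass electrons from NADH to oxygen and pump protons, and ATP synthase uses the resulting gradient to make ATP. The mitochondrial genome holds a few core subunits of these complexes, while all other subunits, and the factors that copy, transcribe and translate mitochondrial DNA, are encoded in the nucleus. Transcription runs along each strand of the circular genome as long precursors that are cut at the transfer RNAs, and the resulting transcripts are especially abundant in cardiac muscle, which relies on oxidative metabolism.

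Between 29204390 and 48807435 reads per library were counted on genes. Summed marker genes followed the labelled tissues. Cardiomyocyte markers took 53141 to 77106 CPM (scaled to the counts of nuclear genes) in heart libraries and at most 835 in brain libraries, and atrial markers took at least 25462 in atria and at most 457 in ventricles. Gnb5 transcripts were lower in Gnb5−/− mice of every tissue, with log2 fold changes from −2.84 in cerebellum to −4.26 in ventricles, and lower in Gnb5+/− mice by −0.93 in atria and −0.95 in ventricles (adjusted p of at most 0.0102, edgeR).

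Of the 9 genes, 6 were well counted and 3 were at or near 0 in all 72 libraries, in which reads aligning equally well to several places were left out of the counts. The position of the genes is given on GRCm38, where all 9 lie intronless on the same (+) strand of the mitochondrial chromosome. Complex I, the NADH dehydrogenase, is represented by mt-Nd1 (chrM:2751-3707), mt-Nd2 (chrM:3914-4951), mt-Nd4 (chrM:10167-11544) and mt-Nd5 (chrM:11742-13565). Complex III is represented by mt-Cytb (chrM:14145-15288), which encodes cytochrome b. Complex IV, the cytochrome c oxidase, is represented by mt-Co1 (chrM:5328-6872), mt-Co2 (chrM:7013-7696) and mt-Co3 (chrM:8607-9390), and ATP synthase by mt-Atp6 (chrM:7927-8607).

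Each gene was compared with the annotated nuclear transcripts, because unique alignment requires that a read have no equal copy elsewhere. A row of unprocessed pseudogenes on chromosome 1, on the minus strand between 24611535 and 24616197, carried near-identical copies of the stretch from mt-Co1 to mt-Nd4. Gm28661 (chr1:24614885-24615565) matched 681 of the 684 bases of mt-Co2 without a mismatch, Gm28437 (chr1:24613189-24613971) matched 783 of the 784 bases of mt-Co3, and Gm10925 (chr1:24613974-24614651) matched 678 of the 681 bases of mt-Atp6. Windows of the length of a sequenced read had an exact copy in an annotated nuclear gene at 99.5% of the positions of mt-Co2, 99.8% of mt-Co3 and 99.5% of mt-Atp6. The share was 60.0% for mt-Nd4, whose copy is Gm28439 (chr1:24611535-24612410), and 26.7% for mt-Co1, whose copies are Gm29216 (chr1:24615706-24616197) and the more distant Gm13340 (chr2:22588103-22589647). It was 0.547% for mt-Nd2 and 0 for mt-Nd1, mt-Nd5 and mt-Cytb. These 3 pairs of 120 bases, each the mitochondrial gene and its nuclear copy read on the coding strand, are shown because they span the range from an identical to a clearly distinct copy, with capitals at the bases that differ. The mt-Co2 stretch lies at chrM:7013-7132 (+) and its copy at chr1:24615446-24615565 (−), the mt-Co1 stretch at chrM:6390-6509 (+) and its copy at chr1:24616069-24616188 (−), and the mt-Cytb stretch at chrM:14146-14265 (+) and its copy at chr4:80003990-80004109 (+).
mt-Co2: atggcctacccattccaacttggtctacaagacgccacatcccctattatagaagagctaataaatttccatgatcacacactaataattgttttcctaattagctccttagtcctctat
Gm28661: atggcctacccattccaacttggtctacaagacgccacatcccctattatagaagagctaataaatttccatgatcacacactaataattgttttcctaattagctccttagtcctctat
mt-Co1: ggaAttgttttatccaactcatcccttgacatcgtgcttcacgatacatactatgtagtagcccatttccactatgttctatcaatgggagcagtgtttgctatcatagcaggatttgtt
Gm29216: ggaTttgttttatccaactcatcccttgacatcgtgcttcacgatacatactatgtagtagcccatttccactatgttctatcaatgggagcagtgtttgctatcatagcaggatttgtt
mt-Cytb: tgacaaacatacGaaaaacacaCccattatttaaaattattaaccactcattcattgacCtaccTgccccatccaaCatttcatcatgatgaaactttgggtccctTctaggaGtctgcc
Gm11410: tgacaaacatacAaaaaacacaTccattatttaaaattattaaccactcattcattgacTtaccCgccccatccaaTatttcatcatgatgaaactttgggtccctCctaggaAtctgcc

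The mt-Co2 pair did not differ in these bases and the mt-Co1 pair differed at 1, so that a read inside the mt-Co1 stretch could be told from this copy only where it crossed that base. The mt-Cytb pair differed at 7 of 120 bases, and over the whole of Gm11410 (chr4:80003989-80005131) at 81 of 1142.

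**Figure D1:**
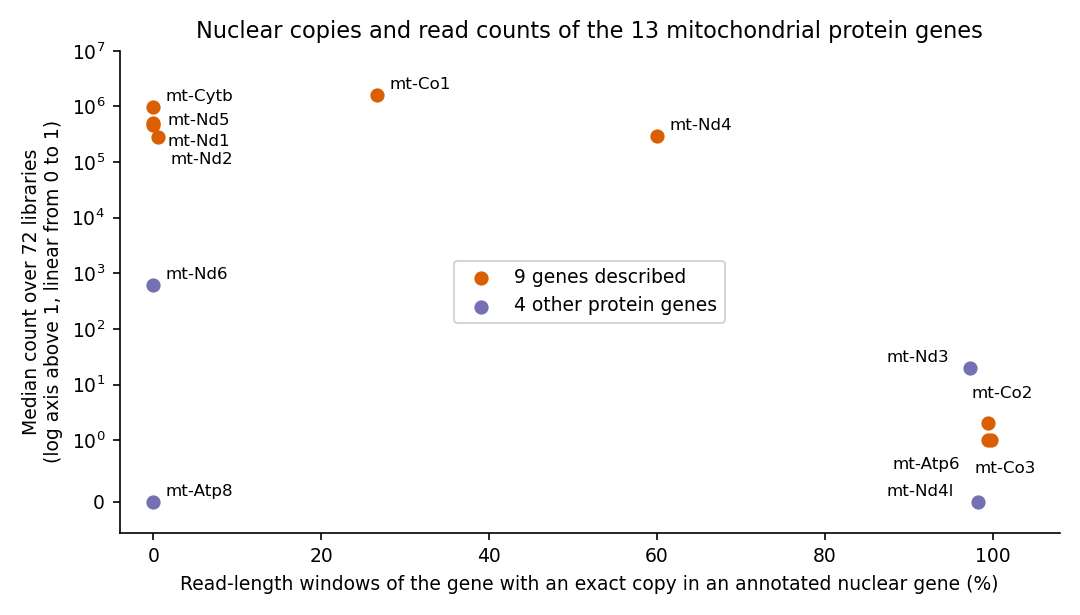
Each point is 1 of the 13 mitochondrial protein genes, placed by the percent of its read-length windows with an exact copy in an annotated nuclear gene (x axis) and by its median count over 72 libraries (y axis, logarithmic above 1 and linear between 0 and 1). The 5 genes above 90% have median counts of at most 19.5, and mt-Atp8 has a median of 0 without an annotated copy.

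The 3 genes with almost fully copied sequence had few uniquely placed reads. mt-Co2 had between 0 and 30 reads per library with a median of 2, mt-Co3 between 0 and 20 with a median of 1, and mt-Atp6 between 0 and 49 with a median of 1, whereas mt-Co1, which acts in the same complex as mt-Co2 and mt-Co3, had between 127587 and 4929543. These identical copies on chromosome 1 had low counts as well, with at most 16 reads on Gm28661, 14 on Gm28437 and 23 on Gm10925 in any library. Gm13341 (chr2:22587291-22587962, −), a copy of mt-Co2 at 95.9% identity, was counted above mt-Co2 itself, with up to 351 reads in a library. Of the other 4 protein genes, mt-Nd3 and mt-Nd4l also fell among the copied genes, with 97.3% and 98.3% of windows and at most 92 and 3 reads. mt-Atp8, which overlaps mt-Atp6, had no window with an exact copy in an annotated nuclear gene and had at most 1 read. It lies between mt-Co2 and mt-Atp6. The search covered annotated transcripts only, so a copy between those of these genes on chromosome 1 would be missed. Whether the copies set these counts was not tested. The low counts of these genes are values of uniquely placed reads and give no level of their transcripts. Reads that were aligned to more than 1 place made up 44.9% ± 1.98 (SD, n = 6) of all reads in Gnb5+/+ ventricles, 37.7% ± 2.75 in atria and between 16.6% and 18.4% on average in the 3 brain regions, and which genes they came from was not given in the counts. The summed share of the 9 genes was therefore, to within the rounding used here, that of the 6 counted genes.

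In Gnb5+/+ mice, the summed share was by far higher in the heart than in the brain and did not overlap between these organs. The ventricular share was 28.1% in the lowest, 39.7% in the median and 43.5% in the highest library, with a mean of 38.0% ± 5.67 (SD, n = 6). The atrial share was 23.4% at the lowest, 25.8% at the median and 34.5% at the highest, with a mean of 26.9% ± 3.88. Ventricles exceeded all atria in 5 of 6 libraries, and the ventricular library of mouse 8 fell within the atrial range. The hippocampal share was 4.39% ± 0.239, ranging from 4.09% to 4.63%, and the cortical share was 4.33% ± 0.293, ranging from 3.95% to 4.69%, so these neighbours in the order did not differ beyond their spread. The cerebellar share was lowest, 3.15% ± 0.171, with a range from 2.95% to 3.41% that lay below all cortical and hippocampal libraries of this genotype. A lower share in whole tissue cannot tell fewer cells rich in mitochondria from less mitochondrial RNA per cell.

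**Figure D2:**
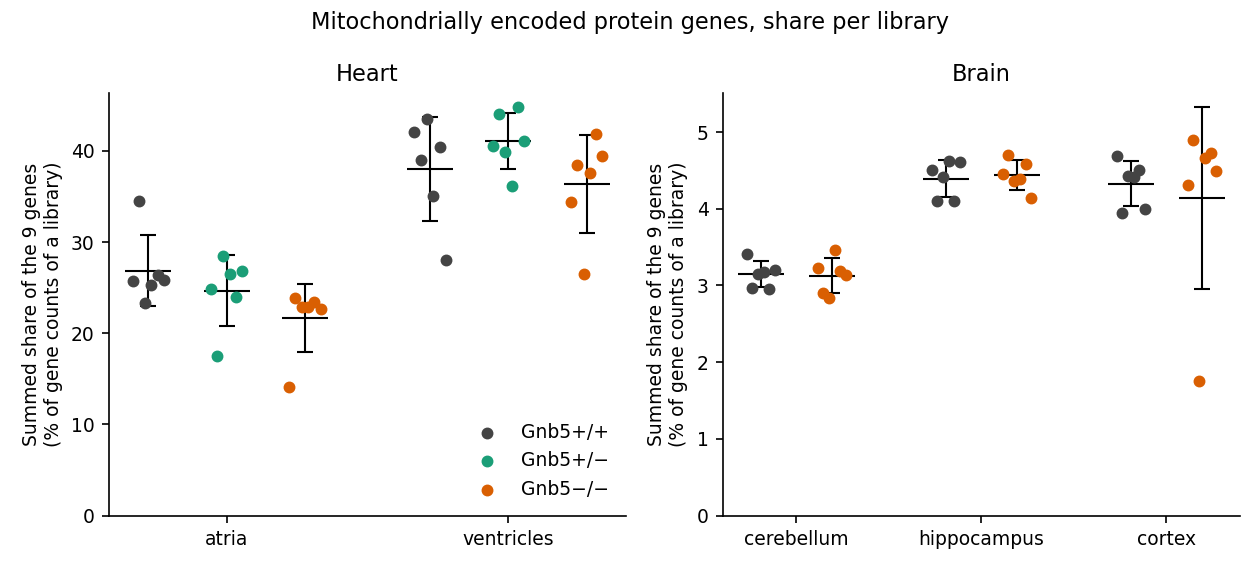
Summed share of the 9 genes, in percent of the gene counts of a library (y axes, different scales for heart and brain), for each of the 72 libraries as a point, with the mean and SD of each group of 6 as a bar. Heart libraries lie between 14.1% and 44.7% and brain libraries between 1.75% and 4.90%.

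Each of the 6 counted genes had its highest mean share in ventricles, followed by atria, and its lowest in cerebellum, with cortex and hippocampus close to each other in between. mt-Co1, the catalytic core of cytochrome c oxidase, took the largest share, from 11.6% to 14.8% of gene counts with a median of 13.3% in Gnb5+/+ ventricles and from 7.80% to 11.5% with a median of 8.53% in atria. Its share in cerebellum ranged from 1.24% to 1.40% with a median of 1.26%, below the hippocampal range of 1.63% to 1.83% and the cortical range of 1.57% to 1.89%. mt-Cytb was the runner-up in every tissue, with medians of 9.47% in ventricles, 6.93% in atria, 1.02% in cortex, 1.01% in hippocampus and 0.692% in cerebellum.

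The complex I genes were counted at lower shares. mt-Nd5, which encodes a proton-pumping subunit, ranged from 3.17% to 7.63% in ventricles with a median of 5.81%, and from 0.259% to 0.329% in cerebellum with a median of 0.299%. mt-Nd1, whose product lies at the quinone binding site, ranged from 3.52% to 6.67% in ventricles with a median of 5.60%, and from 0.353% to 0.440% in cerebellum with a median of 0.402%. mt-Nd2 and mt-Nd4, both proton-pumping subunits, had ventricular medians of 3.09% and 2.14% and cerebellar medians of 0.252% and 0.226%. No heart library of Gnb5+/+ mice overlapped a brain library for any of the 6 genes.

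**Figure D3:**
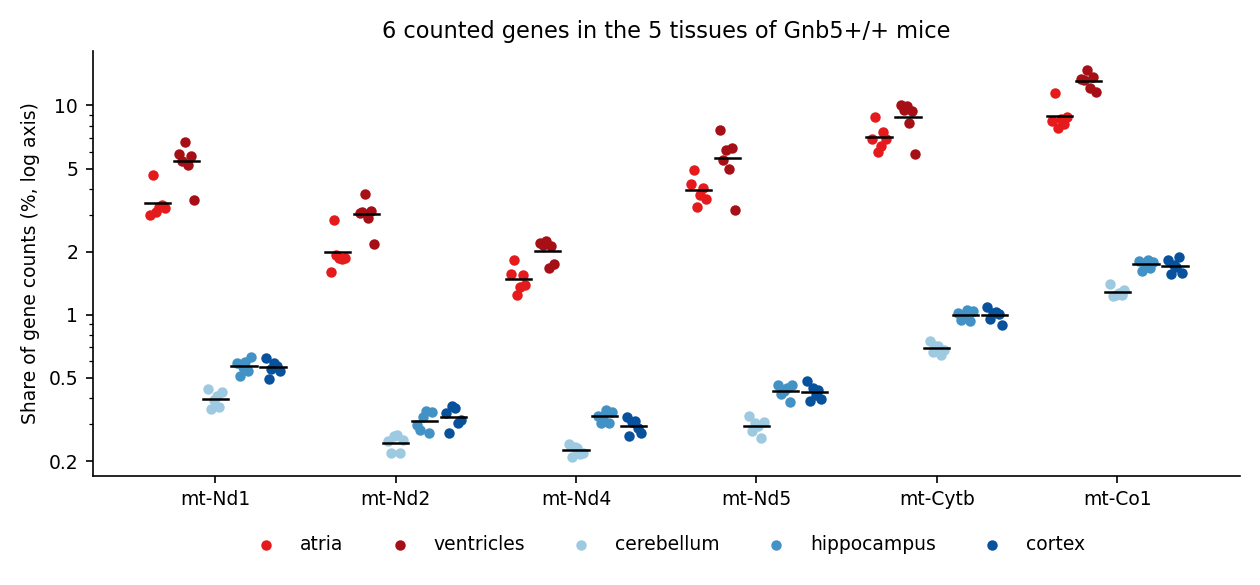
Share of gene counts in percent (y axis, logarithmic) of the 6 counted genes in Gnb5+/+ mice. Points are libraries, 6 per tissue, coloured by tissue, and black lines are means; atria and ventricles lie above all brain libraries for each gene, and cerebellum lies lowest.

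All 6 counted genes were higher in heart than in brain in a fit of the 30 Gnb5+/+ libraries across all genes (edgeR's quasi-likelihood test with TMM scaling, which sets samples to the level of most genes, and adjustment over the 19477 genes tested). The heart was taken as the mean of its 2 tissues and the brain as the mean of its 3 regions. The tissues came from the same mice, and this fit, also used for the tissue contrasts below, had no term for the mouse. Of all genes tested, 40.7% were called higher in heart, at an adjusted p below 0.05. The log2 fold change was largest for mt-Nd5, 4.50 ± 0.12 (SE), followed by mt-Cytb at 4.03 ± 0.10, mt-Nd1 at 3.97 ± 0.11, mt-Nd2 at 3.94 ± 0.10, mt-Co1 at 3.65 ± 0.10 and mt-Nd4 at 3.50 ± 0.08, with adjusted p of at most 4.64e-26. Their median, 3.95, compared with −0.22 over all genes. The scale mattered for these sizes: against library totals with no TMM factor the median over all genes was −1.07 and the 6 genes lay between 2.64 for mt-Nd4 and 3.63 for mt-Nd5, all still called. On that scale 4914 genes were called higher and 13223 lower in heart, against 7936 and 9775 with TMM scaling.

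The 6 genes were also higher in ventricles than in atria, where 21.8% of all genes tested were called higher. The log2 fold change ranged from 0.72 ± 0.16 (SE) for mt-Cytb to 1.05 ± 0.16 for mt-Nd1, a median of 0.93 against −0.07 over all genes, with adjusted p of at most 2.39e-04 (edgeR). Against library totals, the all-gene median was −0.45 and the 6 genes lay between 0.32 for mt-Cytb and 0.65 for mt-Nd1, with adjusted p of at most 0.0245 and with 1767 genes called higher and 10775 lower, in place of 4246 and 5797. The atrial library with the highest summed share, of mouse 16, also had the highest sum of ventricular markers among atria, 1563 CPM of nuclear genes against 85.8 to 1120 in the other Gnb5+/+ atria and at least 13964 in Gnb5+/+ ventricles. Without that library the 6 log2 fold changes were between 0.81 for mt-Cytb and 1.18 for mt-Nd1, all still called, and the part of ventricular tissue in its share was not tested.

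Within the brain, all 6 genes were lower in cerebellum than in cortex, by −0.41 for mt-Nd4 to −0.56 for mt-Nd5 on the log2 scale, with SE of 0.12 to 0.17 and adjusted p of at most 0.0134 (edgeR), where 35.3% of all genes tested were called lower. They were lower in cerebellum than in hippocampus as well, by −0.41 for mt-Nd2 to −0.62 for mt-Nd5, with adjusted p of at most 0.0213, where 34.8% of all genes were called lower. Between hippocampus and cortex, 0 of the 6 were called by edgeR, 0 by DESeq2 and 0 at an unadjusted p under 0.05, where 33.5% of all genes were called. The largest of these differences was 0.19 for mt-Nd4, with a 95% normal interval from its SE of −0.06 to 0.43, and those of the other 5 reached from −0.33 to 0.39.

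The nuclear genes for the same complexes differed between heart and brain in the same direction. Of 79 nuclear subunits of complexes I, III, IV and V, 76 were called higher and 3 lower in heart, where 40.7% of all genes were called higher and 50.2% lower, with a median log2 fold change of 2.41. Examples were Ndufs1, the largest core subunit of complex I, at 2.75 ± 0.03 (SE), Uqcrc2, a core subunit of complex III, at 2.74 ± 0.03, and Atp5c1, the central stalk of ATP synthase, at 3.05 ± 0.04. The 3 lower ones were Ndufb2 at −0.73, Cox6a1 at −0.66 and Cox8a at −0.40. Cox6a1 and Cox8a are the isoforms of their subunits used outside striated muscle, and the muscle isoform gene Cox7a1 was higher at 8.33 ± 0.15. In ventricles against atria, 4246 of the 19477 genes tested were called higher and 5797 lower. Of the 79 subunits, 73 were called higher and 0 lower, with a median of 0.68, among them Uqcrc1 at 1.14 ± 0.09, Ndufs6 at 1.28 ± 0.08 and Cox4i1 at 0.89 ± 0.08. Against library totals, 52 of the 79 nuclear subunits were called, counted in either direction. Of all 19477 genes tested on that scale, 12542 were called in either direction, a similar share. The direction of the 52 was not counted.

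In cerebellum against cortex, 33.8% of all genes tested were called higher and 35.3% lower. Of the 79 nuclear subunits, 17 were called higher and 34 lower, with a median of −0.16, and the 6 mitochondrial genes were all called lower. Both complex IV and ATP synthase had genes called in each direction. Complex IV had 10 of 16 lower, such as Cox8a at −0.76 ± 0.11 and Cox5b at −0.59 ± 0.09, while Cox7a1 was higher at 1.22 ± 0.27. ATP synthase had 7 of 17 higher, such as Atp5h at 0.27 ± 0.06, while Usmg5 was lower at −0.60 ± 0.10 and Atp5k at −0.79 ± 0.14. Genes for mitochondrial DNA expression were called higher in 18 of 28 and lower in 3, with Polg2, the accessory subunit of the mitochondrial DNA polymerase, at 1.82 ± 0.11, Ssbp1, the mitochondrial single-stranded DNA binding protein, at 0.50 ± 0.07 and Mterf3 at 0.53 ± 0.08. Of 6 regulators of mitochondrial biogenesis, 5 were called higher in cerebellum and 0 lower, led by the coactivator gene Ppargc1b at 1.54 ± 0.13, with Gabpa at 0.87 ± 0.09 and Nrf1 at 0.63 ± 0.07.

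The genes for mitochondrial DNA expression were mostly higher in heart than in brain, where 40.7% of all genes tested were called higher and 50.2% lower. Of the 28 expression genes, 23 were called higher and 2 lower, with a median of 0.83 on the log2 scale, well under the 3.95 of the 6 members. Lrpprc, which stabilises mitochondrial messenger RNAs, was higher at 1.68 ± 0.04 (SE) and Hsd17b10, a subunit of mitochondrial RNase P, at 2.69 ± 0.04. The regulators of mitochondrial biogenesis did not all go the same way. The coactivator gene Ppargc1a was higher at 1.94 ± 0.05 and the nuclear receptor gene Esrra at 1.85 ± 0.07, while Nrf1 was lower at −0.33 ± 0.05. In ventricles against atria, where 21.8% of all genes tested were called higher, 23 of the 28 were higher and 0 lower, with Lrpprc at 1.36 ± 0.06.

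The make-up of the counted reads differed on average between heart and brain although the 6 genes lie on 1 precursor strand. mt-Co1 took 33.1% ± 1.21 (SD, n = 6) of the summed counts of the 6 genes in Gnb5+/+ atria and 34.9% ± 3.33 in ventricles, against 39.7% to 40.9% on average in the 3 brain regions. The organs overlapped in this part. In the ventricular library of mouse 8, mt-Co1 was at 11.6% of gene counts in a summed share of 28.1%, within the brain range. mt-Nd5 took 14.8% ± 0.963 in atria and 14.5% ± 2.24 in ventricles, against 9.39% ± 0.338 in cerebellum, 9.88% ± 0.358 in hippocampus and 9.89% ± 0.311 in cortex. Shares of mt-Nd1 were alike, between 12.7% and 14.1% on average in all 5 tissues.

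Levels were compared between genes as RPKM, the reads per kilobase of gene length scaled to the gene counts of the library. The SD is the spread between libraries, which the genes share, and does not judge a difference between genes within a library. In Gnb5+/+ cerebellum the order was mt-Co1 at 8332 ± 414 (SD, n = 6), mt-Cytb at 6054 ± 318, mt-Nd1 at 4165 ± 366 and mt-Nd2 at 2365 ± 206, with mt-Nd4 at 1638 ± 87.5 and mt-Nd5 at 1621 ± 133 close to each other. In atria mt-Cytb, at 61902 ± 8435, had a higher mean than mt-Co1, at 57567 ± 8590. mt-Nd5, at 21705 ± 3123, stood close to mt-Nd2, at 19196 ± 4092, while mt-Nd4 was lowest at 10813 ± 1512. The place of mt-Nd4 depended on the length used. Counted per kilobase of windows without an exact nuclear copy, its atrial level was 27010 ± 3777, above mt-Nd5 and mt-Nd2, and mt-Co1 was at 78505 ± 11715, above mt-Cytb.

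**Figure D4:**
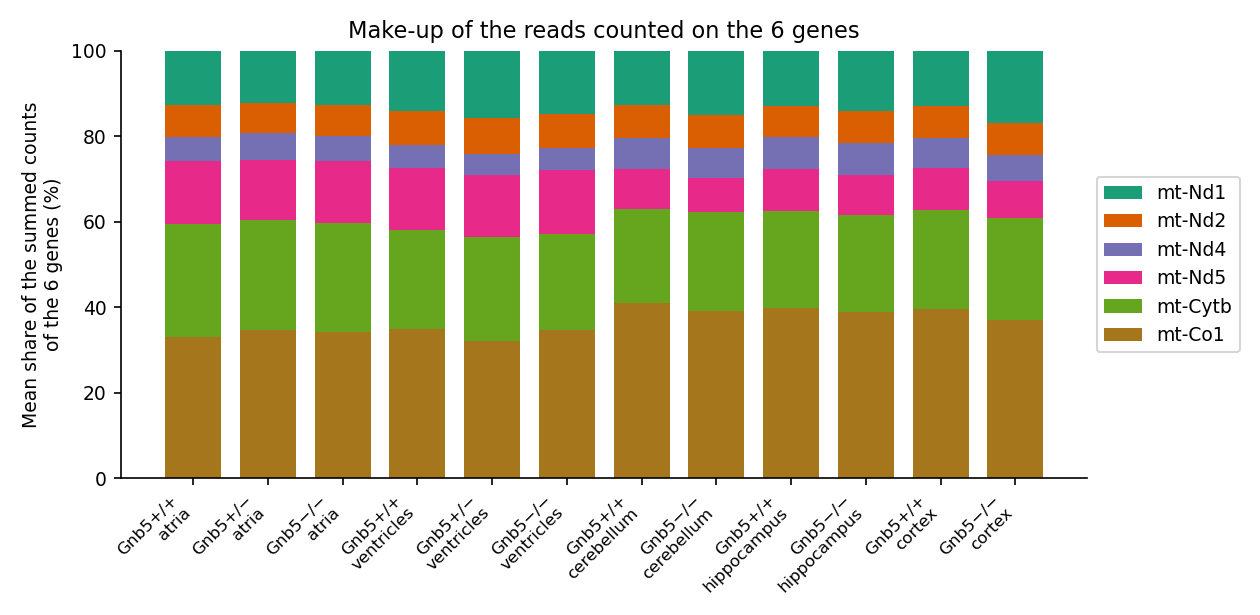
Mean share, in percent, of each of the 6 counted genes in their summed counts (y axis) for the 12 groups of 6 libraries. mt-Co1 is the largest part in each group, at 33.1% in Gnb5+/+ atria and 40.9% in Gnb5+/+ cerebellum, and mt-Nd5 is smaller in the brain groups than in the heart groups.

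mt-Nd6, the only protein gene on the opposite strand (chrM:13552-14070, −), was counted far below its neighbours, with 211 to 3137 reads per library. None of its windows had an exact copy in an annotated nuclear gene. The pseudogene Gm11408 matched all 519 bases at 93.6% identity and had 0 counts in total. Its level in Gnb5+/+ mice was 49.5 ± 29.2 in ventricles on the same scale per length and depth, 36.2 ± 8.51 in atria, 28.8 ± 8.15 in cortex, 24.4 ± 4.57 in hippocampus and 14.1 ± 3.46 in cerebellum. It was higher in heart than in brain by 1.82 ± 0.15 (SE) on the log2 scale with TMM scaling, about 3.53-fold. The 6 counted genes were at least 11.3-fold higher with that scaling. By mean shares of gene counts, heart exceeded brain 1.91-fold for mt-Nd6 and at least 6.22-fold for the 6 counted genes. Cortex and atria overlapped in this gene, from 0.000882% to 0.00214% and from 0.00109% to 0.00226% of gene counts.

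Between genotypes, the clearest difference was in atria, where each of the 6 counted genes was lower in Gnb5−/− than in Gnb5+/+ mice without passing the test across all genes. The summed share in Gnb5−/− atria was 14.1% at the lowest, 22.9% at the median and 23.9% at the highest, with a mean of 21.6% ± 3.73 (SD, n = 6), against 23.4%, 25.8% and 34.5% and a mean of 26.9% in Gnb5+/+ mice. All 6 Gnb5−/− libraries were under the Gnb5+/+ mean, yet the groups overlapped through the Gnb5+/+ library of mouse 17 at 23.4%. Gnb5+/− atria lay between them, at 17.5%, 25.7% and 28.5%, with a mean of 24.7% ± 3.87.

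By gene, mt-Co1 ranged from 5.88% to 7.82% of gene counts in Gnb5−/− atria with a median of 7.64%, against 7.80% to 11.5% with a median of 8.53% in Gnb5+/+ atria, so that the groups touched at their edge. mt-Cytb ranged from 3.25% to 6.37% with a median of 5.95%, against 5.98% to 8.77% with a median of 6.93%. mt-Nd1 ranged from 1.49% to 3.26% with a median of 2.98%, against 3.01% to 4.65% with a median of 3.25%. All Gnb5−/− libraries lay below the Gnb5+/+ median for mt-Co1 and mt-Cytb, and the library of mouse 10 lay lowest for each of these genes.

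The fitted log2 fold changes between Gnb5−/− and Gnb5+/+ atria were −0.44 ± 0.13 (SE) for mt-Co1, −0.50 ± 0.18 for mt-Cytb, −0.48 ± 0.19 for mt-Nd2, −0.38 ± 0.14 for mt-Nd4, −0.45 ± 0.21 for mt-Nd1 and −0.46 ± 0.23 for mt-Nd5. edgeR called 0 of the 6, with adjusted p from 0.286 to 0.638, DESeq2 called 0, and 5 of the 6 had an unadjusted p under 0.05 in edgeR, with p from 0.00311 for mt-Co1 to 0.0558 for mt-Nd5. Of the 16181 genes tested, 0.253% were called and 8.15% had an unadjusted p under 0.05. Two-sided exact permutation tests of the single genes over all ways to divide the 12 mice gave p from 0.00216, the smallest they can give, for mt-Co1 to 0.0238 for mt-Nd5. These 6 p-values are not independent, since the genes share their precursor transcript and libraries. The median over the 6 was −0.45, against 0.00 over all genes, and −0.11 over the 79 nuclear subunits, of which 0 were called by edgeR, 0 by DESeq2 and 12 had an unadjusted p under 0.05.

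Libraries that stand apart carried part of this difference. Without mouse 10 the 6 log2 fold changes were between −0.29 and −0.36, and without mouse 16 of the Gnb5+/+ group between −0.27 and −0.38. Against library totals they were between −0.24 for mt-Nd4 and −0.35 for mt-Cytb, where the median of all genes was 0.14 and 48 genes were called higher and 15 lower, in place of 22 and 19. Summed blood markers moved with the share in mouse 10, at 13732 CPM of nuclear genes against 2806 to 5270 in Gnb5+/+ atria. In the other 5 Gnb5−/− atria they ranged from 1972 to 9003, and of the 5 blood markers 0 were called between these groups by edgeR, 0 by DESeq2, and 1 had an unadjusted p under 0.05 in edgeR. The part of blood or of ventricular tissue in the atrial difference was not tested.

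Gnb5+/− and Gnb5+/+ atria differed less, with log2 fold changes from −0.09 ± 0.13 (SE) for mt-Nd4 to −0.28 ± 0.19 for mt-Nd2. edgeR and DESeq2 called 0 of the 6, none of them had an unadjusted p under 0.05, and 0.0124% of all genes were called. Both comparisons share the 6 Gnb5+/+ libraries.

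**Figure D5:**
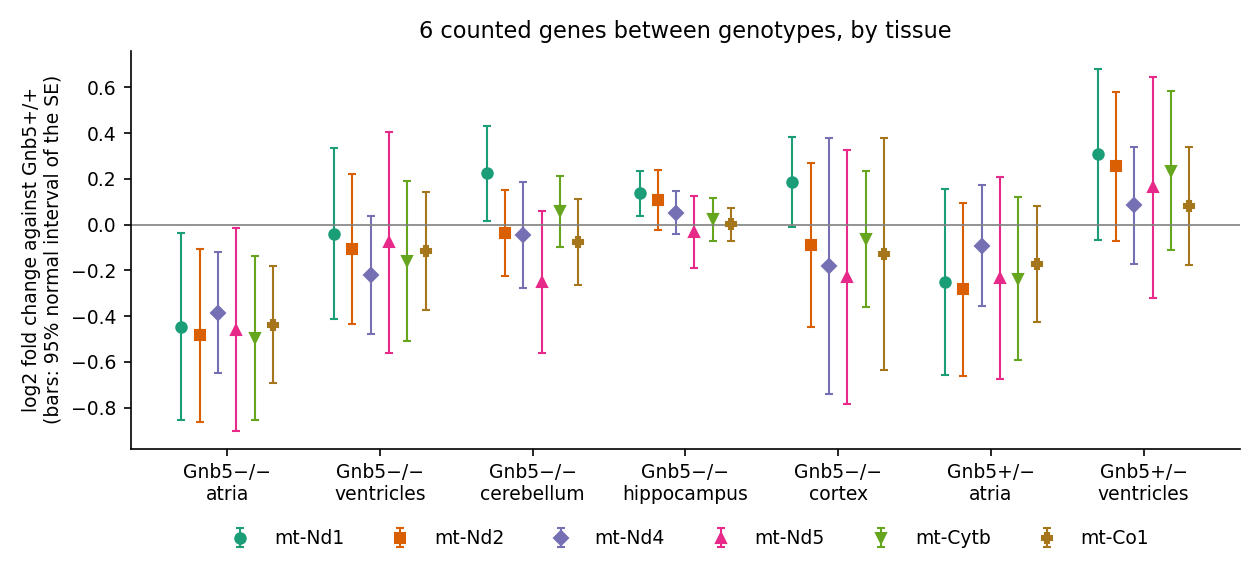
log2 fold change (y axis) of the 6 counted genes in Gnb5−/− mice in 5 tissues and in Gnb5+/− mice in 2 heart tissues, against Gnb5+/+ mice of the same tissue, 6 mice per group. Points are edgeR estimates and bars are 95% normal intervals from their SE; in Gnb5−/− atria all 6 estimates lie between −0.38 and −0.50, and none of the 42 estimates passed the test across all genes.

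In ventricles, the summed share was 26.5% at the lowest, 38.0% at the median and 41.9% at the highest in Gnb5−/− mice, with a mean of 36.4% ± 5.41, and 36.2%, 40.8% and 44.7% in Gnb5+/− mice, with a mean of 41.1% ± 3.08. Both overlapped the Gnb5+/+ range of 28.1% to 43.5%. The log2 fold changes in Gnb5−/− mice were between −0.04 ± 0.19 (SE) for mt-Nd1 and −0.22 ± 0.13 for mt-Nd4. edgeR and DESeq2 called 0 of the 6, 0 had an unadjusted p under 0.05, and 0.188% of all genes were called. Without the Gnb5−/− library of mouse 14, the lowest of its group, mt-Nd1, mt-Nd2 and mt-Nd5 were at 0.10, 0.0026 and 0.075, and so turned in sign.

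mt-Nd4 was the gene with the most uniform shift in Gnb5−/− ventricles, below the Gnb5+/+ mean in 6 of 6 libraries, at 1.67% to 1.99% of gene counts with a median of 1.78%, against 1.67% to 2.26% with a median of 2.14%. The 95% normal interval of its log2 fold change ran from −0.48 to 0.04. mt-Atp6 passed the filter on low counts in ventricles with 3 to 10 reads per Gnb5−/− library, against 0 to 49 in Gnb5+/+ libraries of which 1 held 49 and 1 held 0. Its log2 fold change of −1.85 ± 0.58 (adjusted p = 0.531, edgeR) rested on these few uniquely placed reads.

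In Gnb5+/− ventricles the 6 genes were between 0.08 ± 0.13 (SE) for mt-Co1 and 0.31 ± 0.19 for mt-Nd1 on the log2 scale. mt-Nd1 ranged only from 6.17% to 6.57% of gene counts there, with a median of 6.44%, and was above the Gnb5+/+ mean in 6 of 6 libraries. Its exact permutation p was 0.0260 and its edgeR p was 0.123 before adjustment and 0.961 after it. edgeR and DESeq2 called 0 of the 6, 0 had an unadjusted p under 0.05 in edgeR, and 0.0202% of all genes were called.

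In the brain, the summed share did not separate the genotypes. The cerebellar share averaged 3.13% ± 0.227 (SD, n = 6) without Gnb5 and 3.15% ± 0.171 in wild-type mice. Hippocampal means were 4.44% ± 0.197 and 4.39% ± 0.239, respectively, and cortical means 4.14% ± 1.19 and 4.33% ± 0.293. The Gnb5−/− cortical library of mouse 14 was at 1.75%, and the other 5 ranged from 4.31% to 4.90% with a mean of 4.61%. edgeR and DESeq2 called 0 of the 6 genes in each region, where 0.0817% of all genes were called in cerebellum, 0.165% in hippocampus and 0.0557% in cortex. In hippocampus 1 gene, mt-Nd1, had an unadjusted p under 0.05, as did 7.70% of all genes, and in the other 2 regions 0 did.

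mt-Nd1 was the gene with estimates above 0 in all 3 brain regions. In hippocampus it took 0.600% to 0.668% of gene counts in Gnb5−/− mice with a median of 0.611%, against 0.512% to 0.629% with a median of 0.578%, and was above the Gnb5+/+ mean in 6 of 6 libraries. The log2 fold change was 0.14 ± 0.05 (SE), with p = 0.0179 before and 0.557 after adjustment in edgeR and an exact permutation p of 0.0303. It was 0.22 ± 0.11 in cerebellum and 0.19 ± 0.10 in cortex, with adjusted p of 0.585 and 0.474 in edgeR. The other 5 genes had log2 fold changes between −0.25 for mt-Nd5 in cerebellum and 0.11 for mt-Nd2 in hippocampus.

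Within libraries, the count of mt-Nd5 relative to mt-Nd1 was lower in many Gnb5−/− brains, a ratio of members picked for description after its values were seen. In cerebellum it ranged from 0.236 to 0.727 with a median of 0.585 in Gnb5−/− mice, against 0.713 to 0.792 with a median of 0.732, and 5 of 6 libraries were below all of the Gnb5+/+ ones. In hippocampus, where it ranged from 0.540 to 0.864 against 0.711 to 0.816, 5 of 6 were below and 1 above them all. In cortex it ranged from 0.197 to 0.920 against 0.702 to 0.817, with 4 of 6 below and 1 above. The heart did not show such a shift in this ratio, with medians of 1.09 and 1.12 in Gnb5−/− and Gnb5+/+ atria and 1.03 and 0.983 in ventricles. The ratio of mt-Nd4 to mt-Nd1 was below all Gnb5+/+ libraries in 3, 4 and 4 of 6 Gnb5−/− cerebellar, hippocampal and cortical libraries. In ventricles it was so in 4 of 6 Gnb5−/− libraries, with 1 above all, and in 3 of 6 Gnb5+/− libraries. In Gnb5−/− atria 0 were below and 1 above all, and in Gnb5+/− atria 0 and 2.

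Libraries with the lowest of these ratios differed in other measures as well. The cortical library of mouse 14 had the lowest ratio of mt-Nd4 to mt-Nd1, 0.118 against 0.504 to 0.562 in Gnb5+/+ cortex, and mt-Nd4 was at 0.0609% of its gene counts while mt-Nd1 was at 0.514%. Its nuclear subunits of the complexes summed to 27292 CPM of nuclear genes, against 7053 to 7871, and 6.86% of its uniquely aligned reads lay outside genes, against 13.1% to 15.6%. The cerebellar library of mouse 12, with a ratio of mt-Nd5 to mt-Nd1 of 0.236, had nuclear subunits at 22656 against 7350 to 7906 in Gnb5+/+ cerebellum and 8.02% of reads outside genes against at least 16.1%. The Gnb5+/− ventricular library of mouse 4, with a ratio of 0.531 against at least 0.857 in the other 5 of its group, had nuclear subunits at 61465 against 39316 to 44481 and 2.85% of reads outside genes against 4.61% to 4.81%. The Gnb5−/− cortical library of mouse 3 stood apart in the same measures, with ratios to mt-Nd1 of 0.344 for mt-Nd5 and 0.350 for mt-Nd4, nuclear subunits at 12427 and 8.32% of reads outside genes. What links these measures was not tested.

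The nuclear subunits had median log2 fold changes of 0.84 in Gnb5−/− cortex and 0.60 in Gnb5−/− cerebellum, against −0.11 and −0.04 for the 6 mitochondrial genes and 0.01 and 0.00 for all genes, and these values rested on the libraries just named. Without the cortical library of mouse 14 the median was 0.14, and without those of mice 14 and 3 it was −0.03. Without the cerebellar library of mouse 12 it was 0.10. In both regions 0 of the 78 tested in edgeR were called, with or without these libraries, and 0 of 79 were called in DESeq2 with all libraries. At an unadjusted p under 0.05 in edgeR were 23 in cortex, against 7.39% of all genes, and 9 in cerebellum, against 5.90% of all genes. These counts were 1 in cortex without mouse 14, against 4.74% of all genes, and 21 in cerebellum without mouse 12, against 11.5% of all genes. In hippocampus, where the sums ranged from 6974 to 7565 in Gnb5−/− mice against 7220 to 7573, their median was −0.01, with 0 of 78 called by edgeR and 3 at an unadjusted p under 0.05, below the 7.70% of all genes. DESeq2 called 2 of 79 there, against 110 of the 32349 genes in its fit. In Gnb5−/− ventricles the median was −0.01 and in Gnb5+/− ventricles 0.14, with 0 of 79 called by edgeR or DESeq2 in both and 0 and 2 at an unadjusted p under 0.05, against 4.78% and 4.84% of all genes.

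The Gnb5−/− effect was also compared between tissues of the same mice, with each mouse as a block. For ventricles minus atria, the differences of the log2 fold change were all above 0, from 0.18 ± 0.20 (SE) for mt-Nd4 to 0.45 ± 0.35 for mt-Nd5, with unadjusted p from 0.138 to 0.373 and adjusted p of 1.00 in edgeR. For cerebellum minus cortex they were between 0.04 and 0.21, and for hippocampus minus cortex between −0.04 and 0.32. edgeR called 0 of the 6 in these 3 tests and 0 had an unadjusted p under 0.05; called were 0.0% of all genes for the heart, 0.0103% for cerebellum minus cortex and 0.0% for hippocampus minus cortex. A lower level of the 6 genes particular to Gnb5−/− atria was therefore not shown.

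The nuclear genes with the pattern most like that of the summed members over the 12 group means were Got2, the mitochondrial aspartate aminotransferase, and Ndufa10, an accessory subunit of complex I, both with Pearson's r of 0.998, followed by Fermt2, encoding the focal adhesion protein kindlin-2, Pdha1, encoding a subunit of pyruvate dehydrogenase, and Mrrf, encoding the mitochondrial ribosome recycling factor. The ranking covered 10381 protein-coding genes of at least 10 CPM on average, and the r of the 5 lay between 0.997 and 0.998. Heart and brain form separate clusters in these values, and the groups share mice. A high r therefore mainly reflects this separation, and r does not measure the size of the contrast. Got2 was at 560 CPM in Gnb5+/+ heart and 189 in brain, and Ndufa10 at 415 and 123, a far smaller contrast than that of the 6 members.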

How the data were processed

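Total RNA of 5 tissues was sequenced as stranded single-end libraries. Per the labels and the study's methods, the authors trimmed reads (cutadapt 1.8), removed ribosomal reads, aligned the rest to GRCm38 (STAR 2.5.3a) and deposited raw counts per gene (HTSeq 0.9.1), in which reads aligned to more than 1 place are not counted; the strand setting is not given in the sources used here. Gene counts per library ranged from 29204390 to 48807435, and 53620 of 53715 identifiers matched the annotation used here (GENCODE M21). The members and lists were chosen with earlier results of these data known.

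Shares are percentages of gene counts and are presented as mean ± SD. Counts were fitted with edgeR 4.0.16 (R 4.3.3; quasi-likelihood test, TMM factors, filterByExpr with a minimum count of 10) per tissue for genotype, over 30 Gnb5+/+ libraries for tissue, and with each mouse as a block for differences between tissues; p-values were adjusted over all genes tested (Benjamini-Hochberg, threshold 0.05). Of the 9 members, 6 passed the filter in each fit, mt-Atp6 also passed in ventricles, and 8 passed in the heart interaction. The brain fits used 12 libraries and the heart fits 18. Single genes were also tested by two-sided exact permutation of log2 CPM (prior count 2). Each SE was derived from the size of the log2 fold change and its F statistic. Alternatives were DESeq2 1.42.0, other scalings and filters, and libraries left out. Further ones were replicate blocks for genotype, mouse blocks for tissue and no mouse block for differences of the effect. Mice were separate animals; same-numbered mice across tissues are the same animal, and correlations of their deviations ranged from −0.126 to 0.492 with a median of 0.231 over 60 pairs. Nuclear copies were sought with BLAST+ 2.17.0+ (at least 100 aligned bases and 90% identity) and by exact windows among annotated transcripts only, so that copies outside annotated genes were not counted. On simulated counts for Gnb5−/− and Gnb5+/+ atria with 200 genes changed by 1 on the log2 scale, edgeR found 155, with 4 false calls. The same for cortex gave 117, with 3 false calls. Smaller changes, such as those estimated for the 6 genes in atria, were not simulated.

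Genes named from other lists were picked, per list and direction, from those with the lowest p among genes called, and were not always the lowest. The 5 genes of like pattern were ranked by Pearson's r over the 12 group means.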

Additional observations from a re-analysis of the deposited data

Results flagged for a closer look

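Of 84 groups of 6 libraries examined (the summed share and the 6 counted genes in 12 groups), 18 held a library whose gap to its nearest neighbour exceeded Dixon's critical ratio of 0.625; chance gives about 1 in 20. The values are percentages of gene counts, and the groups of 1 library are not independent, since the 6 genes share it.

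In Gnb5+/+ atria, mouse 16 stood high in the summed share at 34.5%, in mt-Nd1 at 4.65%, in mt-Nd2 at 2.82% and in mt-Co1 at 11.5%. In Gnb5−/− atria, mouse 10 stood low in the summed share at 14.1%, in mt-Nd1 at 1.49%, in mt-Nd2 at 0.945%, in mt-Nd4 at 0.943% and in mt-Cytb at 3.25%. In Gnb5+/− atria, mouse 13 stood low in mt-Nd2 at 1.12% and in mt-Cytb at 4.06%.

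In Gnb5−/− cortex, mouse 14 stood low in the summed share at 1.75%, in mt-Nd2 at 0.138%, in mt-Nd4 at 0.0609%, in mt-Co1 at 0.437% and in mt-Cytb at 0.502%, but not in mt-Nd1. In Gnb5−/− ventricles, mouse 14 stood low in mt-Nd5 at 3.07%, and in Gnb5−/− cerebellum mouse 12 stood low in mt-Nd5 at 0.142%.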

How the results depend on the processing

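All 6 counted genes stayed called in the tissue contrasts of heart against brain, ventricles against atria and cerebellum against both other brain regions, and 0 were called in the 7 genotype comparisons, in each alternative run for these counts. The 6 genes had large counts in each library. The other 3 had at most 49 uniquely placed reads in a library, so no level is given for them, and where reads aligned to several places came from was not tested.

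Signs of uncalled log2 fold changes turned in these cases. In Gnb5+/− atria, mt-Nd4 ranged from −0.087 to 0.017 over single libraries left out. In Gnb5−/− ventricles, the ranges were −0.16 to 0.10 for mt-Nd1, −0.21 to 0.0026 for mt-Nd2 and −0.22 to 0.075 for mt-Nd5, and mt-Nd1 was 0.0062 against library totals. In Gnb5−/− cerebellum without mouse 12, mt-Nd2 was 0.016 and mt-Nd4 was 0.040. In Gnb5−/− hippocampus, mt-Co1 was −0.00053 with no filter, −0.0024 with 10 counts in every library and −0.017 against library totals. In Gnb5−/− cortex without mouse 14, mt-Nd2, mt-Nd4, mt-Co1 and mt-Cytb were 0.055, 0.022, 0.062 and 0.060; without mice 14 and 3, mt-Nd2, mt-Nd4, mt-Nd5, mt-Co1 and mt-Cytb were 0.070, 0.051, 0.082, 0.082 and 0.049. Without these 2 and the cerebellum of mouse 12, the difference of the effect between cerebellum and cortex was −0.044 for mt-Nd2, −0.10 for mt-Nd5 and −0.055 for mt-Co1, and that between hippocampus and cortex 0.015 for mt-Nd1, −0.073 for mt-Nd5 and −0.048 for mt-Co1. With no mouse block, the difference of the effect between cerebellum and cortex was −0.023 for mt-Nd5. The cause was not tested.

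As a percentage of nuclear gene counts, the summed share was 37.1, 33.0 and 27.8 in Gnb5+/+, Gnb5+/− and Gnb5−/− atria, 62.4, 70.1 and 58.1 in ventricles and 4.64 in Gnb5−/− hippocampus. As a percentage of all uniquely aligned reads it was 2.59 and 2.64 in Gnb5+/+ and Gnb5−/− cerebellum, 3.79 and 3.84 in hippocampus and 3.66 in Gnb5+/+ cortex. Per kilobase of windows without an exact copy, in atria, ventricles, cerebellum, hippocampus and cortex, mt-Nd4 was at 27010, 36798, 4092, 5938 and 5350 and mt-Co1 at 78505, 115682, 11363, 15402 and 15153. Ranked over 72 libraries, 2 of the 5 genes of like pattern remained.

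With the replicate number as a block across genotypes, which joins different animals, 0 members were called, and counts over all genes were 37, 3, 23, 0, 5, 19 and 6 against 41, 2, 28, 3, 14, 29 and 10, for Gnb5−/− and Gnb5+/− atria, Gnb5−/− and Gnb5+/− ventricles, and Gnb5−/− cerebellum, hippocampus and cortex. Same-numbered mice had a median correlation of −0.0474 over 54 pairs, and 1 correlated best with its own number. In the same order, DESeq2 called 113, 8, 62, 3, 62, 110 and 35 genes. Leaving out mouse 12 gave 59 in cerebellum, leaving out mouse 14 gave 22 in cortex, mice 14 and 3 together 26, and leaving out mouse 16 gave 27 in Gnb5−/− atria. Library totals gave 63 in Gnb5−/− atria, 18 in Gnb5−/− ventricles and 0 in Gnb5+/− ventricles, and fits of 2 genotypes gave 20 in Gnb5−/− atria and 1 in Gnb5+/− ventricles. With 10 counts in every library, 6 genes were called in cortex, 11445 between heart and brain and 8835 between cerebellum and hippocampus. Between tissues, the difference of the effect was called for 2 genes in heart and 4 for cerebellum against cortex with no mouse block. It was called for 15 and 3 genes against cortex, in cerebellum and hippocampus, without the 3 brain libraries.

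The libraries left out in cortex and cerebellum, and the choice of mice 10, 14 and 16, were made after seeing the data.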
